A study of Arabidopsis thaliana with 4 samples.

Results

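Described here are the 37 gene models of transfer RNAs (tRNAs) encoded in the plastid genome, among 33602 gene models counted in Arabidopsis thaliana. The members are all plastid gene models that encode a tRNA, taken by locus and annotation. The plants were otp90 knock-out mutants of the line SM_3_29659, set against wild-type Col-0, with 2 libraries of each genotype. All 4 libraries were made from aerial organs of untreated soil-grown plants at Boyes stage 1.09. Total RNA was depleted of ribosomal RNA and sequenced as stranded single-end reads on an Ion Proton instrument. No label states that same-genotype libraries were grown or extracted separately. The p-values therefore reflect library-to-library spread only, part of which may be technical.

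A tRNA carries an amino acid to the ribosome and reads a codon through its anticodon, and plastids of land plants encode the set with which they translate their own messages. Plastid tRNA genes are transcribed by a bacterial-type polymerase of plastid-encoded subunits and by a phage-type polymerase from the nucleus. Their precursors are trimmed at both ends, some are spliced, and a CCA end is added before the amino acid is attached. The glutamate tRNA of plastids has a further use, since its glutamate is the starting point of chlorophyll and haem synthesis. The libraries were sized at 230 bp, and the tRNA models span 71 to 92 exonic bases. Whether the reads came from mature tRNAs or from precursors was not tested.

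The libraries held 1489112 and 1841972 counts in otp90, against 2685718 and 1828745 counts in Col-0, ribosomal RNA models included. Reads whose best and next-best alignments tied had been removed before counting, and they were 87.0% and 80.4% of mapped reads in otp90, against 79.9% and 84.8% in Col-0. The leaf genes RBCS1A, CA1, RCA and GAPA lay between 550 and 11510 CPM (read counts scaled to the non-ribosomal library total with TMM factors) in every library. The root gene PYK10 lay between 17.2 and 89.4 CPM, and the seed gene CRA1 and the flower genes AG and AP3 had 7, 4 and 8 counts over all libraries. The locus behind the name otp90 is not named in the labels, so the targeted gene was not checked here.

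The counts of the plastid tRNA genes differed with whether their sequence occurs elsewhere in the genome. For genes with introns, copies were counted for the 5′ exon only. Sequences from the RefSeq annotation of TAIR10.1 were assigned to all 37 models by amino acid, anticodon, exon number and exonic length, which gave 30 distinct sequences. Of the 37 models, 15 had an identical sequence elsewhere in the genome, and those 15 held 18 counts over all 4 libraries, with 12 of them at 0. The other 22 models had no identical copy, all of them had counts, and together they held 123630 counts, of which 73955 were of trnD-GUC. The lowest of the 22, trnM-CAU, had 5 counts, fewer than the 16 of the trnI-GAU model ATCG00930, which has a copy. Of the 15 models, 14 are the paired genes of the inverted repeat, the stretch that the plastid genome carries in 2 copies: trnI-CAU, trnL-CAA, trnV-GAC, trnI-GAU, trnA-UGC, trnR-ACG and trnN-GUU. Only 3 of these 14 models had any count. The trnI-GAU model ATCG00930 had 1 and 7 counts in otp90, against 5 and 3 counts in Col-0. The other trnI-GAU model, ATCG01200, had 1 count in 1 Col-0 library and the trnA-UGC model ATCG01190 had 1 count in 1 otp90 library. Levels of these 14 genes, and of any other with an identical copy, cannot be read from the counts, and a low count of theirs does not show a low level.

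**Figure D1:**
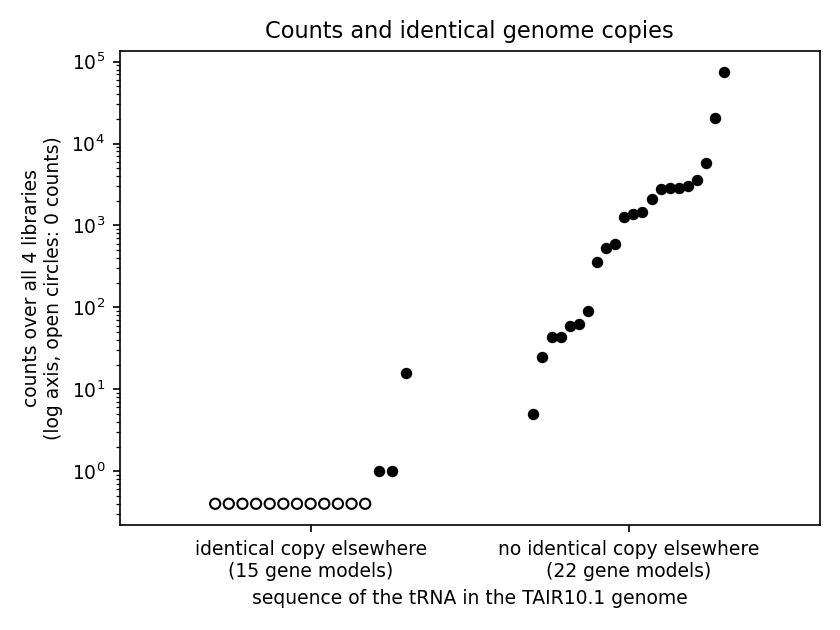
Counts summed over the 4 libraries (log axis) for each of the 37 plastid tRNA gene models, split by whether the same sequence occurs elsewhere in the TAIR10.1 genome; open circles are models at 0 counts. The 15 models with an identical copy hold 18 counts in all, and the 22 without hold 123630. For genes with introns, copies were counted for the 5′ exon only.

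The remaining model with an identical copy is trnY-GUA, the tyrosine tRNA, which lies between the glutamate tRNA gene trnE-UUC and the aspartate tRNA gene trnD-GUC. The sequences of these 3 genes are shown because their counts part along one cluster of 738 bases. They are given 5′ to 3′ as DNA, from the minus strand of the TAIR10.1 plastid sequence, with the anticodon in capitals.
trnE-UUC: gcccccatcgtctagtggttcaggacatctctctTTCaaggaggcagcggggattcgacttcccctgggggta
trnY-GUA: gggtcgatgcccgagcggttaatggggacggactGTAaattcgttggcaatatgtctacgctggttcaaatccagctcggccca
trnD-GUC: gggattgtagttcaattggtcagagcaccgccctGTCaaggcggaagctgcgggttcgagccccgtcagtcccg
In that sequence trnD-GUC lies at positions 29801 to 29874, trnY-GUA at 30323 to 30406 and trnE-UUC at 30466 to 30538. Counting from the first base of trnE-UUC, trnE-UUC takes bases 1 to 73, trnY-GUA bases 133 to 216 and trnD-GUC bases 665 to 738. Chromosome 3 of the nuclear genome holds a copy of bases 1 to 455 that is 99.1% identical over 455 aligned columns. That copy carries trnY-GUA without a mismatch and trnE-UUC with 1 mismatch, and it ends before trnD-GUC. A copy of trnD-GUC with 1 mismatch lies in the mitochondrial genome and in chromosome 2.

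Along this cluster the counts went from none to the highest of all members. The model of trnY-GUA had 0 counts in every library. The model of trnE-UUC had 83 and 158 counts in otp90, against 208 and 141 counts in Col-0. The model of trnD-GUC had 12601 and 17659 counts in otp90, against 26968 and 16727 counts in Col-0. Per length, the level of trnD-GUC was 110 to 150 times that of trnE-UUC over the 4 libraries. How much of this gap comes from tied or nearly tied reads was not tested.

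**Figure D2:**
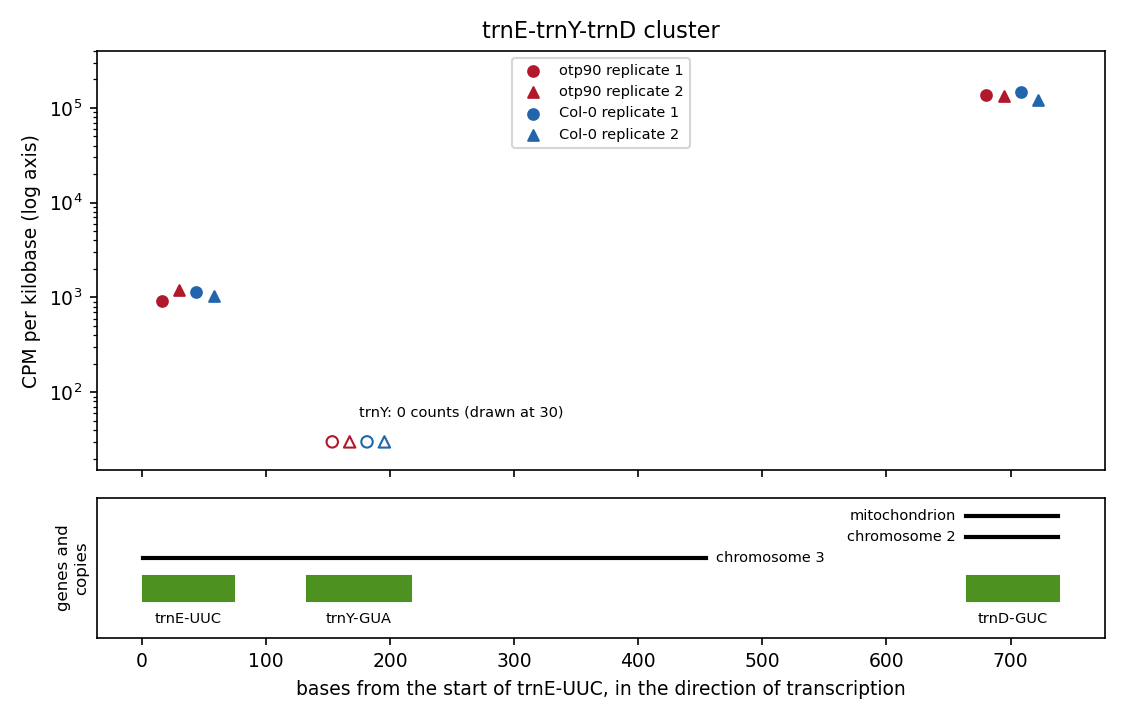
Upper panel: level of trnE-UUC, trnY-GUA and trnD-GUC in each library (CPM per kilobase, log axis), placed at their distance in bases from the start of trnE-UUC; open symbols mark 0 counts. Lower panel: the genes, with the stretch copied on chromosome 3 and the near-copies of trnD-GUC. Inside the stretch copied on chromosome 3, trnY-GUA is at 0 and trnE-UUC lies between 923 and 1202. Outside that stretch, trnD-GUC lies between 120478 and 146096.

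As a mean over the 4 libraries, trnD-GUC reached 134331 CPM per kilobase of gene model. Its level was 138223 and 132527 CPM per kilobase in otp90, against 146096 and 120478 in Col-0. For scale, psbA, which encodes the D1 protein of photosystem II, had 113655 and 92256 CPM per kilobase in otp90, against 80589 and 90305 in Col-0. Per length, the trnD-GUC values lay above the psbA values in all 4 libraries. The trnD-GUC model is 74 bases long and the psbA model 1062, and the libraries were sized at 230 bp. Whether levels per length can be compared between a model shorter than that size and a longer one was not tested. In CPM, not divided by length, psbA was the higher, with 120702 and 97976 in otp90, against 85586 and 95904 in Col-0. The trnD-GUC model took 58.9% and 58.2% of all plastid tRNA counts in otp90, against 60.7% and 60.9% in Col-0. That share differed by -2.25 percentage points, with both otp90 libraries lower (exact two-sided permutation p = 0.333, the smallest that 2 against 2 libraries can give).

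Below trnD-GUC came trnL-UAA, a leucine tRNA gene, with a mean level of 32330 CPM per kilobase. It was followed by trnV-UAC, for valine, at 10679 and trnK-UUU, for lysine, at 6661 CPM per kilobase. Over the libraries, the ranges of trnD-GUC, trnL-UAA and trnV-UAC did not overlap with that of the gene next below. From trnK-UUU downwards, every pair of neighbours in the order overlapped. The levels of trnG-UCC, trnQ-UUG, trnF-GAA and trnH-GUG lay close together, at 5629, 5522, 5431 and 5233 CPM per kilobase. Below 200 CPM per kilobase lay trnT-UGU at 187, trnT-GGU and trnR-UCU both at 107, trnW-CCA at 73.2, trnP-UGG at 67.8, trnL-UAG at 38.6 and trnM-CAU at 9.63.

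The 4 intron-bearing genes of the single-copy region (trnK-UUU, trnG-UCC, trnL-UAA and trnV-UAC) had a median level of 8670 CPM per kilobase, between 5629 and 32330. The 18 single-copy genes with neither an intron nor an identical copy had a median of 944, between 9.63 and 134331. Lengths are of the exons, and whether reads within introns were counted was not tested. In adjacent genes the levels parted as well. The level of trnL-UAA was 4.39 to 9.01 times that of its downstream neighbour trnF-GAA over the 4 libraries. The level of trnG-UCC was 47.3 to 60.9 times that of trnR-UCU, the next gene downstream.

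**Figure D3:**
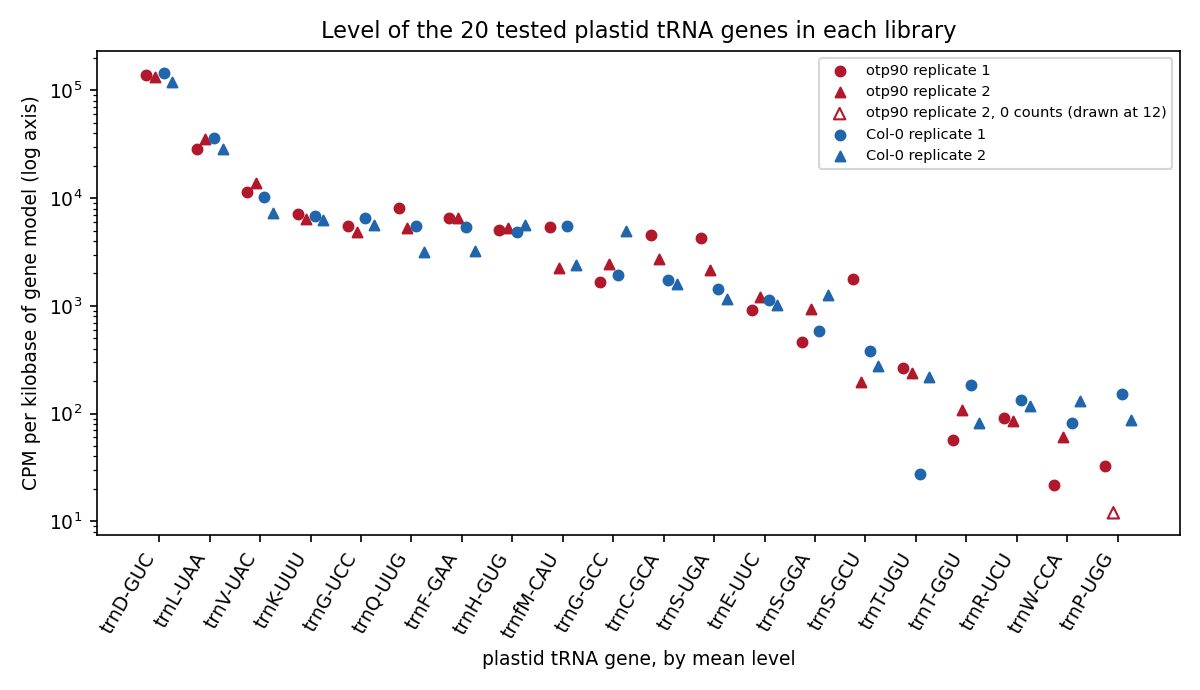
Level of the 20 plastid tRNA genes with enough counts to test, in each of the 4 libraries (CPM per kilobase of gene model, log axis), ordered by their mean; an open symbol is a library at 0 counts. The mean level runs from 134331 for trnD-GUC to 67.8 for trnP-UGG, and the libraries of both genotypes overlap for 11 of the 20 genes.

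The tRNA models took 21390 and 30355 counts in otp90, against 44436 and 27467 counts in Col-0. As a share of non-ribosomal counts this was 1.56% and 1.73% in otp90, against 1.77% and 1.59% in Col-0. The difference was -0.0394 percentage points, and the libraries overlapped (exact two-sided permutation p = 0.667). As a share of plastid non-ribosomal counts, the tRNA models took 4.11% and 5.49% in otp90, against 5.27% and 5.84% in Col-0. That share averaged 4.8% ± 0.974 in otp90, against 5.56% ± 0.402 in Col-0 (mean ± SD of 2 libraries), which is a difference of -0.755 percentage points (exact two-sided permutation p = 0.667). With 2 against 2 libraries no such test can go below 0.333. In whole organs, fewer cells of a type and less RNA per cell cannot be told apart. Most of the weight of both shares lies on trnD-GUC. Without it the other plastid tRNA genes took 0.639% and 0.725% of non-ribosomal counts in otp90, against 0.698% and 0.623% in Col-0. The difference in that share turned to 0.0218 percentage points. Of plastid non-ribosomal counts the same genes took 1.69% and 2.30% in otp90, against 2.07% and 2.28% in Col-0. There the difference kept its sign, at -0.185 percentage points, and the libraries overlapped.

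Of the 37 members, 20 had enough counts to test between the genotypes, all of them in the single-copy region. None was called at an adjusted p under 0.05 by edgeR's quasi-likelihood test with Benjamini-Hochberg adjustment over 11938 genes. Over all genes tested, 0% were called, and the smallest adjusted p of the edgeR test was 0.9998. At an unadjusted p under 0.05, 3 of the 20 tRNA genes passed (15%), against 1.41% of all genes tested. Of these 3, trnS-UGA and trnC-GCA were higher in otp90 (0.637% of all genes tested in that direction) and trnP-UGG was lower (0.771%). DESeq2 called 0 members, with 3 at an unadjusted p under 0.05 against 0.804% of all genes tested. By the same count limma voom called 0 members, with 2 at an unadjusted p under 0.05 against 0.963% of all genes tested. The fitted log2 fold change was positive for 9 of the 20 tRNA genes and negative for 11, with a median of -0.02. The median was 0.16 over the 75 other plastid genes tested, of which 50 were positive, and -0.01 over all genes tested.

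Both otp90 libraries lay above both Col-0 libraries for 5 tRNA genes, and below for 4. Over all genes tested these shares were 12.4% above and 13.5% below, and 25.9% in either direction. For the tRNA genes the count in either direction was 9 of 20, or 45.0%, and for the 75 other plastid genes 17.3%. Since members are not replicates, no test stands behind these shares.

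**Figure D4:**
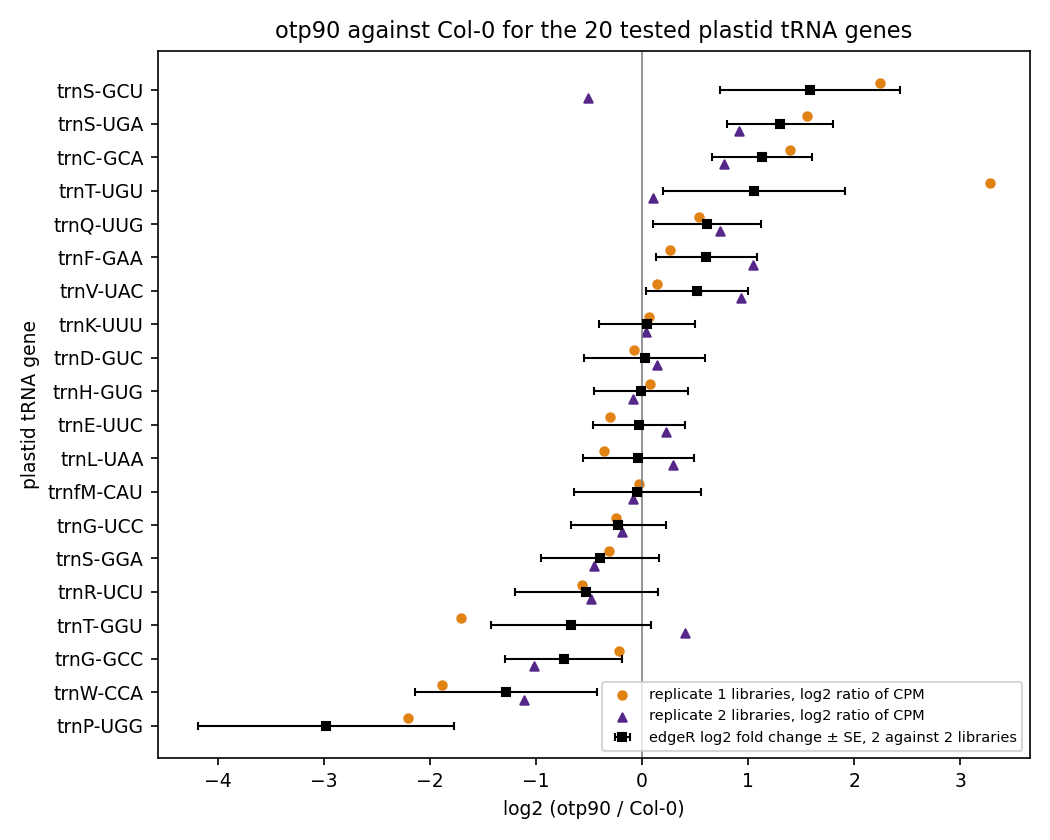
Log2 fold change of otp90 over Col-0 for the 20 plastid tRNA genes tested: squares with bars are edgeR estimates ± SE from 2 against 2 libraries, and the small symbols are the log2 ratio of CPM between the libraries that carry the same replicate number (trnP-UGG has none for replicate 2, where otp90 had 0 counts). None was called, and the estimates run from 1.58 for trnS-GCU to -2.98 for trnP-UGG.

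The genes with the smallest p among those higher in otp90 were trnS-UGA, a serine tRNA, and trnC-GCA, the cysteine tRNA. Their sequences are shown with 2 other serine tRNAs, which share much of their length but not their values. The sequences are given 5′ to 3′ as DNA from RefSeq's TAIR10.1 annotation, with the anticodon in capitals.
trnC-GCA: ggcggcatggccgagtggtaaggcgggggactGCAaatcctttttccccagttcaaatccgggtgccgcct
trnS-UGA: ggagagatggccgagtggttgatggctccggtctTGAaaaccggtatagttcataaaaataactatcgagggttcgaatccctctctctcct
trnS-GCU: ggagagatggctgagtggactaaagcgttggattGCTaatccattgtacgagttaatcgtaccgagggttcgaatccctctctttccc
trnS-GGA: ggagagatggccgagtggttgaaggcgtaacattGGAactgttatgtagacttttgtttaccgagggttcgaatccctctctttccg
The serine genes lie at positions 35312 to 35403 (trnS-UGA, minus strand), 7785 to 7872 (trnS-GCU, minus strand) and 44827 to 44913 (trnS-GGA, plus strand), and trnC-GCA at 27373 to 27443 on the plus strand. For trnS-GCU the anticodon was found on the strand opposite to the annotated one, and the sequence is printed on that strand. Aligned in pairs, trnS-GCU and trnS-GGA were 74.4% identical, trnS-GGA and trnS-UGA 72.6%, and trnS-GCU and trnS-UGA 68.0%.

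The gene trnS-UGA, whose tRNA reads UCN serine codons, had 479 and 358 counts in otp90, against 330 and 198 counts in Col-0. In CPM this was 389 and 199 in otp90, against 132 and 106 in Col-0, so the groups did not overlap, and the first otp90 library stood well above the other 3. The log2 fold change was 1.30 (SE 0.50, unadjusted p = 0.0296, not called by edgeR's quasi-likelihood test). It was 0.76 without otp90 replicate 1 and 1.73 without otp90 replicate 2. The gene lies between psbZ and psbC, both on the opposite strand, at 347 and 170 bases. The psbC model, for a chlorophyll-binding protein of photosystem II, had 33385 and 9470 CPM in otp90, against 13095 and 10289 in Col-0. There too the first otp90 library was the highest, but the groups overlapped (log2 fold change 0.87, SE 0.74). The psbZ model had 349 and 194 CPM in otp90, against 344 and 163 in Col-0, and its log2 fold change was 0.10 (SE 0.54).

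For trnC-GCA the libraries held 400 and 346 counts in otp90, against 309 and 211 counts in Col-0. In CPM this was 325 and 192 in otp90, against 124 and 112 in Col-0, again with both otp90 libraries higher and the first the highest. The log2 fold change was 1.13 (SE 0.47, unadjusted p = 0.0414, not called by edgeR's quasi-likelihood test), or 0.72 without otp90 replicate 1. The nearest gene downstream on the same strand is petN, for a small subunit of the cytochrome b6f complex, 645 bases away. The petN model had 131 and 91.6 CPM in otp90, against 146 and 155 in Col-0, with both otp90 libraries lower (log2 fold change -0.43, SE 0.44, not called). On the other side, rpoB, for a subunit of the plastid-encoded polymerase, lies on the opposite strand at 1043 bases and had a log2 fold change of 0.28 (SE 0.47).

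Neither of the remaining serine genes was called. The trnS-GCU model, whose tRNA reads AGU and AGC codons, had 194 and 31 counts in otp90, against 83 and 46 counts in Col-0. In CPM this was 157 and 17.2 in otp90, against 33.3 and 24.5 in Col-0: the otp90 libraries were the highest and the lowest of the 4. Its log2 fold change of 1.58 (SE 0.85, unadjusted p = 0.0977, not called by edgeR's quasi-likelihood test) rests on otp90 replicate 1, and without that library it was -0.73. The trnS-GGA model, whose tRNA reads UCC and UCU codons, had 40.6 and 81.1 CPM in otp90, against 50.5 and 111 in Col-0. The replicate 2 library was the higher in both genotypes, and the log2 fold change was -0.40 (SE 0.56).

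The proline and tryptophan tRNA genes, which lie 187 bases apart on the same strand, had few counts, and both otp90 libraries lay below both Col-0 libraries. The proline gene trnP-UGG lies at positions 66490 to 66563, minus strand, and is shown because it is the member with the lowest estimate, with the anticodon in capitals.
trnP-UGG: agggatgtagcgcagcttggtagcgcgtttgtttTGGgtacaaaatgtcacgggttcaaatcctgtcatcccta
Its model had 3 and 0 counts in otp90, against 28 and 12 counts in Col-0. Summed over libraries, 3 counts in otp90 stood against 40 in Col-0, a ratio after scaling of 0.108 with a 95% interval of 0.0214 to 0.339 that covers counting error only. The fitted log2 fold change was -2.98 (SE 1.21, unadjusted p = 0.0364, not called by edgeR's quasi-likelihood test), and it was -7.19 without otp90 replicate 1 and -1.82 without otp90 replicate 2. With 1 library at 0 counts this value depends on the prior count. A limit of 3 counts corresponds to 2.44 and 1.67 CPM in otp90, against 1.2 and 1.6 CPM in Col-0. The tryptophan gene trnW-CCA had 2 and 8 counts in otp90, against 15 and 18 counts in Col-0. Its ratio was 0.437 (95% counting interval 0.192 to 0.907), and its fitted log2 fold change was -1.28 (SE 0.86, unadjusted p = 0.17, not called by edgeR's quasi-likelihood test). A near-copy of trnW-CCA within 2 mismatches lies in the mitochondrial genome and in chromosome 2. Beyond trnP-UGG, on the opposite strand at 365 bases, psaJ of photosystem I had 904 and 576 CPM in otp90, against 976 and 806 in Col-0 (log2 fold change -0.27, SE 0.49). On the side of trnW-CCA, petG of the cytochrome b6f complex had 37.3 and 33.3 CPM in otp90, against 37.3 and 8.53 in Col-0 (log2 fold change 0.61, SE 0.66).

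Among the genes with introns, trnV-UAC had 838 and 1024 CPM in otp90, against 762 and 537 in Col-0, with both otp90 libraries higher. Its mean was 931 ± 131 CPM in otp90, against 650 ± 159 CPM in Col-0 (SD over 2 libraries). The log2 fold change was 0.52 (SE 0.48). The glycine gene trnG-UCC had 395 and 353 CPM in otp90, against 470 and 403 in Col-0, with both otp90 libraries lower and a log2 fold change of -0.22 (SE 0.45). For trnL-UAA, which carries a group I intron, the levels were 2425 and 3005 CPM in otp90, against 3108 and 2454 in Col-0. These overlapped, with a log2 fold change of -0.03 (SE 0.52). For trnK-UUU, whose intron holds the maturase gene matK, the levels were 517 and 458 CPM in otp90, against 496 and 448 in Col-0. These overlapped as well, with a log2 fold change of 0.05 (SE 0.45), and matK itself had 0.14 (SE 0.50). The highest library of trnK-UUU was 1.15 times the lowest, the smallest such spread among the 20 tested tRNA genes.

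The genes downstream of trnL-UAA and trnG-UCC were not called either. The phenylalanine gene trnF-GAA, 684 bases downstream of trnL-UAA, had 475 and 482 CPM in otp90, against 395 and 234 in Col-0. Both otp90 libraries were higher, by a log2 fold change of 0.61 (SE 0.48). Its other neighbour ndhJ, for an NADH dehydrogenase-like subunit, lies on the opposite strand and had 710 and 585 CPM in otp90, against 551 and 354 in Col-0 (log2 fold change 0.52, SE 0.48). The arginine gene trnR-UCU, downstream of trnG-UCC, had 8 and 11 counts in otp90, against 24 and 16 counts in Col-0. Both otp90 libraries were lower in CPM, with 6.49 and 6.11 in otp90, against 9.62 and 8.53 in Col-0, and the log2 fold change was -0.53 (SE 0.68).

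Neither threonine gene was called. The trnT-UGU model had 24 and 31 counts in otp90, against 5 and 30 counts in Col-0. In CPM this was 19.5 and 17.2 in otp90, against 2 and 16 in Col-0: the first Col-0 library stood far below the other 3. The log2 fold change of 1.05 (SE 0.86) was 0.21 once Col-0 replicate 1 was left out, and 3.16 with Col-0 replicate 2 left out instead. The trnT-GGU model had 5 and 14 counts in otp90, against 33 and 11 counts in Col-0, with overlapping libraries and a log2 fold change of -0.67 (SE 0.76).

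The initiator gene trnfM-CAU, whose tRNA starts every plastid protein, had 398 and 165 CPM in otp90, against 405 and 176 in Col-0. The first library was the higher in both genotypes, and the log2 fold change was -0.05 (SE 0.60). The same held for rps14, a ribosomal protein gene 160 bases away on the same strand, with 3814 and 1497 CPM in otp90, against 2688 and 1442 in Col-0. The glycine gene trnG-GCC, 143 bases from trnfM-CAU on the opposite strand, had the reverse pattern, with 119 and 173 CPM in otp90, against 139 and 350 in Col-0. Its log2 fold change was -0.74 (SE 0.55). The 2 glycine tRNAs are 76.7% identical.

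Of the other tested genes, trnD-GUC had 10228 and 9807 CPM in otp90, against 10811 and 8915 in Col-0, with the otp90 libraries between those of Col-0 and a log2 fold change of 0.02 (SE 0.57). The glutamate gene trnE-UUC had 67.4 and 87.7 CPM in otp90, against 83.4 and 75.2 in Col-0, and a log2 fold change of -0.03 (SE 0.44). The histidine gene trnH-GUG had 371 and 390 CPM in otp90, against 354 and 414 in Col-0, and a log2 fold change of -0.01 (SE 0.44). In both of these genes the libraries of the genotypes overlapped. The glutamine gene trnQ-UUG had 581 and 380 CPM in otp90, against 400 and 229 in Col-0, with the replicate 1 library the higher in both genotypes and a log2 fold change of 0.61 (SE 0.51). Among single-copy genes too low to test, trnL-UAG had 1 and 9 counts in otp90, against 11 and 4 counts in Col-0. The elongator methionine gene trnM-CAU had 1 and 0 counts in otp90, against 1 and 3 counts in Col-0.

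The tRNA genes were also read by replicate number. With genotype as a term, number 2 against number 1 gave 0 called members of 20 in edgeR's quasi-likelihood test, while 96 of all genes tested (0.804%) were called. At an unadjusted p under 0.05 stood 3 of the 20 members, against 8.76% of all genes tested. They were trnS-GCU with a log2 fold change of -1.81 (SE 0.63), trnfM-CAU with -1.23 (SE 0.44) and trnS-GGA with 1.07 (SE 0.45). Their adjusted p in the edgeR test was 0.323, 0.34 and 0.472. The median over the 20 tRNA genes was -0.17, with 6 positive and 14 negative. Over the 75 other plastid genes it was -0.49, with 7 positive and 68 negative. Over all genes tested the median was 0.03, with 6158 positive and 5780 negative.

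Genes related to the making or use of plastid tRNAs were read in 5 lists, plastid transcription among them. Between the genotypes, edgeR's quasi-likelihood test called 0 of their members, against 0% of all genes tested. At an unadjusted p under 0.05 stood 0 of them, against 1.41% of all genes tested. Of the 22 aminoacyl-tRNA synthetases and subunits of the glutamyl-tRNA amidotransferase, 15 were positive and 7 negative, with a median log2 fold change of 0.12. In 6 of the 22 (27.3%) both otp90 libraries were higher, against 12.4% of all genes tested. In 0 both were lower, against 13.5% of all genes tested. No test stands behind these shares. The amidotransferase turns glutamyl-tRNA for glutamine into glutaminyl-tRNA. The gene of its subunit C, AT4G32915, had 14.3 ± 8.46 CPM in otp90, against 7.27 ± 0.486 CPM in Col-0 (mean ± SD of 2 libraries). Its log2 fold change was 0.95 (SE 0.69), while GATB had -0.51 (SE 0.50) and AT3G25660, annotated as an amidase, had -0.54 (SE 0.57). The cysteinyl-tRNA synthetase gene SYCO had 0.61 (SE 0.57).

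Of 4 genes for tRNA processing and modification, 3 were tested, with log2 fold changes of -0.90 (SE 0.80) for TRZ2, which trims the 3′ end, 0.22 (SE 0.79) for PRORP1, which trims the 5′ end, and 0.24 (SE 0.45) for TADA, which edits the arginine anticodon. Of the 7 splicing factors for plastid introns, 4 were positive and 3 negative, with a median of 0.12. They included CAF1 with -0.46 (SE 0.50), CFM3A with 0.34 (SE 0.57), CFM2 with 0.21 (SE 0.43) and CAF2 with 0.12 (SE 0.55). Of the 5 genes of the path from glutamyl-tRNA to tetrapyrroles, 1 was positive and 4 negative, with a median of -0.04. HEMA1, for the glutamyl-tRNA reductase that draws on the glutamate tRNA, had -0.03 (SE 0.57), and FLU, which restrains that enzyme, had -0.28 (SE 0.49). HEMA2, for another reductase of the same kind, had -0.04 (SE 0.65). GSA1 and GSA2, for the aminomutase that makes aminolevulinic acid, had 0.03 (SE 0.46) and -0.08 (SE 0.47).

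Of the 12 genes for plastid transcription, 8 were positive and 4 negative, with a median log2 fold change of 0.15. Sigma factors direct the plastid-encoded polymerase to its promoters. SIG3 had 0.75 (SE 0.48) and SIG6 had -0.38 (SE 0.44). AT5G15700, annotated in the DNA/RNA polymerase superfamily, had -0.68 (SE 0.67), and rpoA, for a subunit of the plastid-encoded polymerase, had -0.33 (SE 0.44).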

How the data were processed

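The authors deposited raw counts per gene model and the length of each model, after removing reads with tied best alignments (per the file headers). Counting used TAIR10, according to the submitters' processing notes. Neither the aligner nor the use of strand is given in the sources used here, and antisense reads may be included.

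Counts of all gene models without 15 ribosomal RNA models were fitted by edgeR 4.0.16 (R 4.3.3; TMM, filterByExpr, two-sided quasi-likelihood test, Benjamini-Hochberg over 11938 genes, threshold 0.05), with genotype as the only term. The fit was tested on simulated data. Levels are CPM, and CPM per kilobase of the deposited length. Shares were compared by exact permutation tests. Alternatives used DESeq2 1.42.0, limma 3.58.1, other scalings and filters, a replicate block and each library left out. Sequences and neighbours come from RefSeq's TAIR10.1, searched with BLAST 2.17.0; the deposited table gives no coordinates. Member symbols come from a hand-written list, checked by anticodon and length. Among plastid protein-coding names, matK, ycf3 and ndhB had deposited lengths that differed from RefSeq's. Every member is accounted for. Of each list, genes with the smallest p are named (up to 4), and of other genes only plastid neighbours and the organ markers. HEMA1 falls outside this rule, while psbA is a neighbour of trnH-GUG and trnK-UUU. Both psbA and HEMA1 were added after their values were seen. The members and lists were chosen with earlier results of these data known. PCR duplicates cannot be told from molecules, so counting intervals and limits cover counting error only.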

Additional observations from a re-analysis of the deposited data

How the results depend on the processing

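No plastid tRNA gene was called between genotypes under any of the 14 alternatives, each library left out included. Without the low-count filter 25 members were tested, with 4 at an unadjusted p under 0.05. The share of all genes at that limit was not taken here, nor for the replicate block or plastid scaling below. A replicate block gave 0 called, 3 at an unadjusted p under 0.05 and a median log2 fold change of -0.02. The labels give no pairing, and same-numbered libraries deviated together with r = 0.22 across genes. Over all genes, 24, 30 and 33 were called without otp90 replicate 1, Col-0 replicate 1 and Col-0 replicate 2, and 0 without otp90 replicate 2. Scaling on plastid protein-coding genes shifted the median of all genes to -0.19 and that of the members to -0.16. Between genotypes it left 1 member at an unadjusted p under 0.05. Between replicate numbers the same scaling called 434 of all genes tested. Among those was 1 member, trnS-GGA (log2 fold change 1.61, adjusted p = 0.0445 in edgeR's quasi-likelihood test). The members' median was 0.11 in the replicate 2 libraries alone and lay between 0.023 and 0.15 with 1 library left out. The tRNA share of non-ribosomal counts differed by -0.130 to 0.0511 percentage points with 1 library left out, and by 0.0218 without trnD-GUC. The share of plastid counts differed by -1.44 to -0.0660, and by -0.185 without trnD-GUC. Signs turned for trnH-GUG (0.0088 with DESeq2 size factors, 0.0065 with nuclear scaling, 0.0089 with DESeq2, 0.069 in number 1 alone), trnK-UUU (-0.15 with plastid scaling), trnD-GUC (-0.15 with plastid scaling, -0.080 in number 1) and, in number 2 alone, trnS-GCU (-0.51), trnE-UUC (0.22), trnT-GGU (0.41) and trnL-UAA (0.29). With 1 library left out the log2 fold change lay between -0.10 and 0.12 for trnH-GUG, -0.022 and 0.16 for trnK-UUU, -0.73 and 2.46 for trnS-GCU, -0.10 and 0.18 for trnD-GUC, -0.21 and 0.17 for trnE-UUC, -1.21 and 0.055 for trnT-GGU, -1.24 and 0.088 for trnG-GCC, -0.79 and 0.69 for trnfM-CAU, -0.96 and 0.29 for trnS-GGA, and -0.18 and 0.16 for trnL-UAA. The other 10 members kept their sign in every alternative, though with 1 library left out the value lay between -2.18 and -0.77 for trnW-CCA, 0.27 and 1.09 for trnQ-UUG, 0.29 and 1.05 for trnF-GAA, 0.30 and 0.81 for trnV-UAC, 0.72 and 1.48 for trnC-GCA, 0.76 and 1.73 for trnS-UGA, -0.32 and -0.09 for trnG-UCC, -0.60 and -0.42 for trnR-UCU, 0.21 and 3.16 for trnT-UGU, and -7.19 and -1.82 for trnP-UGG. The cause was not tested. Counts of the inverted-repeat genes are too few to give a level, and trnP-UGG and trnW-CCA rest on few counts.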
